A study of Drosophila melanogaster with 6 samples.

Results

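The 7 genes described here are piwi, aub, AGO3, vas, tej, osk and zpg of Drosophila melanogaster, picked by name from the 582 different features of both deposited tables of the series. 5 of them (piwi, aub, AGO3, vas and tej) act in the piRNA pathway, and 3 (vas, osk and zpg) are known for their roles in the germline, so that vas counts in both groups. Polyadenylated RNA of S2 cells, an embryo-derived line that resembles haemocytes, was sequenced after 5 days of treatment with double-stranded RNA, delivered with the transfection reagent DOTAP. There were 6 libraries, 2 each with RNAi against HP1a, against dKDM4A and against GFP, the control. All groups were of the same cell line, were grown at the same temperature and carried no other treatment named in the labels. Each RNAi treatment was set against the same 2 GFP libraries in a table of its own, and each table lists the features with an adjusted p below 0.05 by the authors. Values of features outside a table were not analysed here.

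The piRNA pathway silences transposable elements in animal gonads. Short RNAs, the piRNAs, guide Argonaute proteins of the Piwi clade to transposon transcripts. In the fly germline, Aub and AGO3 cut these transcripts in turns and thereby make more piRNAs in the cytoplasm, while Piwi enters the nucleus and directs silencing of chromatin, in which HP1a takes part. Vas is an RNA helicase and Tej a Tudor domain protein of the perinuclear granules where this takes place. Osk organises the germ plasm at the posterior of the oocyte, and Zpg is a gap junction protein that germ cells need to survive and differentiate.

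The members divided between the tables. The HP1a table listed 6 of the 7 genes, 5 higher (vas, osk, aub, zpg and tej) and 1 lower (AGO3). Of all 8287 features tested there, 6.46% were listed, 4.18% as higher and 2.28% as lower. The dKDM4A table listed piwi alone, as lower; of 7533 features tested, 1.19% were listed, 0.876% as higher and 0.319% as lower. No member was in both tables, so no gene here could be compared between HP1a RNAi and dKDM4A RNAi. The 7 genes were chosen with these listings known, and their number is therefore only a description. In bulk RNA, a change in the number of cells that express a gene and a change in RNA per cell cannot be told apart.

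The labels were checked on the targeted genes. Kdm4A had 2141 and 2675 normalized counts in the libraries labelled dKDM4A RNAi, against 842 and 843 in GFP RNAi. This is higher and goes against the label, and its reason was not tested. The direction given for piwi rests on the library labels and would turn round if they were exchanged with the controls, which was not tested. The HP1a table uses the same 2 GFP libraries, so after such an exchange its members would have no GFP control. The HP1a gene (FBgn0003607) averaged 14269 ± 2030 in HP1a RNAi and 23735 ± 2506 in GFP RNAi (SD, n = 2 each), or 60.1% of the control. Normalized counts are read counts divided by a size factor for each library. The median listed feature held between 745 and 3362 reads per library. The labels name no separate cultures behind the 2 libraries of each group, so each p-value here reflects the spread among libraries that may be technical replicates.

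**Figure D1:**
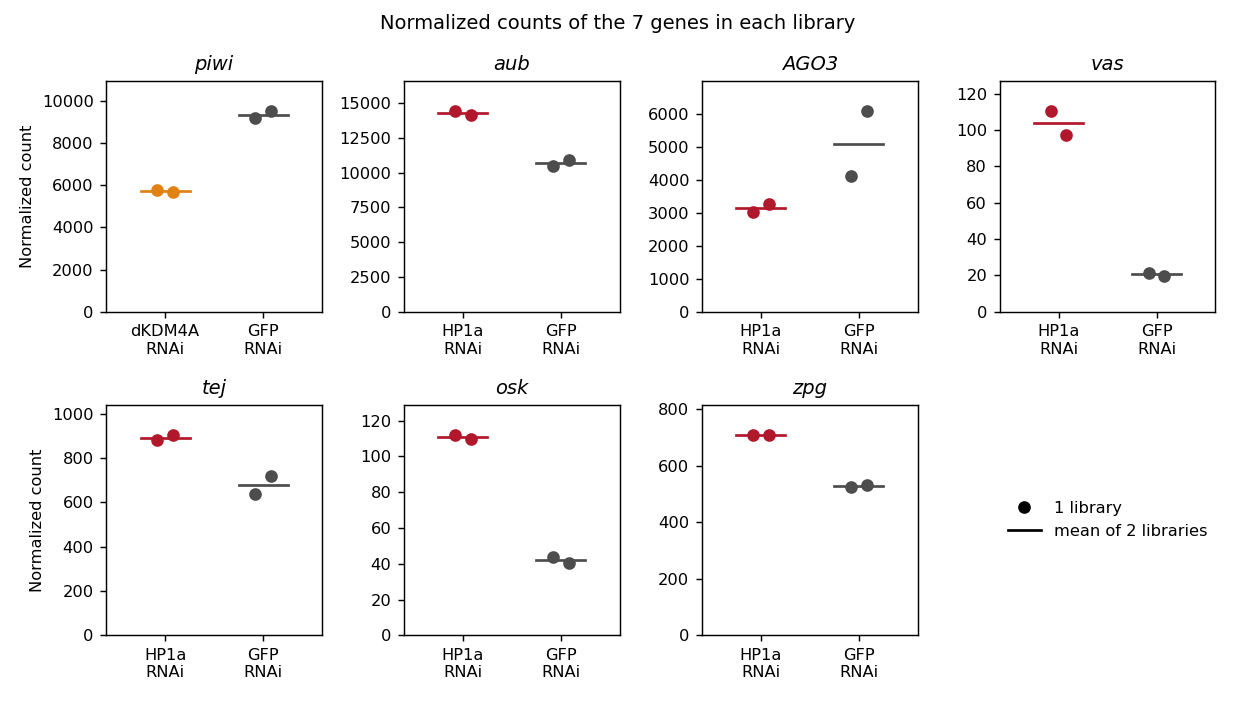
Normalized counts of the 7 genes in each library, with a linear axis from 0 in every panel; points are libraries and lines are means of 2. The RNAi group stands left of GFP RNAi, and in all 7 panels the groups do not overlap, with AGO3 showing the widest control spread (4101 and 6079).

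The Argonaute genes came first by level. piwi (FBgn0004872, chromosome 2L, 10982205 to 10987420, minus strand) encodes the nuclear Argonaute of the pathway. It had 5761 and 5658 normalized counts in the libraries labelled dKDM4A RNAi, against 9182 and 9508 in GFP RNAi. Both libraries labelled dKDM4A RNAi lay below both controls, and replicates were close together. The means were 5709 ± 72.8 in the libraries labelled dKDM4A RNAi and 9345 ± 230 in GFP RNAi (SD, n = 2 each), 1.64-fold lower. The authors' deposited table gives a log2 fold change of -0.70 with an SE of 0.069 (adjusted p = 1.86e-20). As labelled, that was the second-largest decrease among the 24 lower features. Its adjusted p, which does not depend on the direction, was the second-smallest among all 90.

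aub (FBgn0000146, chromosome 2L, 10997819 to 11001476, minus strand), the partner of AGO3 in the cytoplasm, was higher in HP1a RNAi. Its normalized counts were 14418 and 14158 in HP1a RNAi, against 10450 and 10931 in GFP RNAi. Both HP1a libraries exceeded both controls. The rise was 1.34-fold by mean normalized count, and the authors' deposited table gives 0.41 on the log2 scale with an SE of 0.071 (adjusted p = 4.48e-07). aub lies 10398 bases from piwi on the same strand. Between them are 2 annotated genes, CG12253 and TTLL4A, of which 0 were listed in either table. These neighbouring Argonaute genes thus stood in different tables. As the libraries are labelled their signs were opposite. With the dKDM4A and GFP labels exchanged, piwi would be higher, and the sign of aub against GFP RNAi would be unknown.

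AGO3 (FBgn0250816, chromosome 3L, 23554593 to 23689640, plus strand) was the 1 member that was lower in HP1a RNAi. It had 3034 and 3268 normalized counts in HP1a RNAi, against 4101 and 6079 in GFP RNAi. The groups did not overlap, but the controls differed from each other by 1978, more than the gap of 833 between the groups. The means of 3151 ± 166 in HP1a RNAi and 5090 ± 1399 in GFP RNAi (SD, n = 2 each) gave a 1.62-fold decrease. On the log2 scale the authors' deposited table has -0.62 with an SE of 0.187 (adjusted p = 0.0188). Limma on log2(normalized count + 1) gave an adjusted p of 0.0311 over the listed rows, and it no longer passed when GFP RNAi replicate 2 or either HP1a RNAi library was left out (adjusted p from 0.0519 to 0.0958). Without GFP RNAi replicate 2 the log2 fold change shrank to -0.38, and without GFP RNAi replicate 1 it was -0.95.

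The reads behind the AGO3 controls were close. The deposited values correspond to 4383 and 4362 AGO3 reads in GFP RNAi, while the size factors of these libraries were 1.07 and 0.717. For the other 5 members of the HP1a table, GFP RNAi replicate 2 had fewer reads than replicate 1. AGO3 also stands apart in its gene structure. It spans 135048 bases of pericentromeric sequence, of which 3182 are exon, and the annotation places 106 repeat insertions within it. Of its exon bases 166 lie in an annotated repeat. The other 6 genes span at most 12656 bases and hold 3 insertions in all, each of them in piwi introns.

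A ratio of a pair of genes within a library does not depend on the size factor. Per kb of exon, aub had 5.01 and 4.57 times as many reads as AGO3 in HP1a RNAi, against 2.69 and 1.90 times in GFP RNAi. Both ratios in HP1a RNAi exceeded both in GFP RNAi. That follows from the rise of aub and the fall of AGO3 as listed, and is no separate evidence for either. The mean ratio was 4.79 ± 0.313 in HP1a RNAi and 2.29 ± 0.56 in GFP RNAi (SD, n = 2 each), a 2.09-fold shift towards aub.

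The helicase gene vas (listed as FBgn0003970, chromosome 2L, 15061656 to 15074311, plus strand) rose the most. It had 110 and 97.1 normalized counts in HP1a RNAi, against 21.5 and 19.5 in GFP RNAi. Both HP1a libraries stood far above both controls, but few reads lie behind the controls. There were 137 and 102 reads in HP1a RNAi and 23 and 14 in GFP RNAi. The fold was 5.06 by mean normalized count. The authors' deposited table gives a log2 fold change of 1.76 with an SE of 0.256 (adjusted p = 8.47e-10), a 3.39-fold increase with a 95% interval of 2.39 to 4.80. The deposited fold is smaller than the ratio of means, which lies above that interval. The log2 ratio of means was 1.33 times the deposited log2 fold change for vas and 1.22 times for osk. The median over the listed features of the HP1a table was 1.05. The reason for this gap was not tested. By the deposited fold, vas ranked 21 among the 346 higher features.

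tej (FBgn0033921, chromosome 2R, 14300103 to 14302353, minus strand), the Tudor domain gene, rose modestly. It had 880 and 904 normalized counts in HP1a RNAi, against 635 and 721 in GFP RNAi. The groups did not overlap, and the rise was 1.32-fold. The authors' deposited table has a log2 value of 0.38 with an SE of 0.117 (adjusted p = 0.0204), the highest adjusted p of the 7 genes. Limma passed with all libraries (adjusted p = 0.0195), but not without GFP RNAi replicate 1 or either HP1a RNAi library (adjusted p from 0.0606 to 0.0803).

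osk (FBgn0003015, chromosome 3R, 8935126 to 8938395, plus strand), the organiser of germ plasm, had 112 and 109 normalized counts in HP1a RNAi, against 44.0 and 40.4 in GFP RNAi. The replicates lay close together and the groups well apart. Behind these values were 139 and 115 reads in HP1a RNAi and 47 and 29 in GFP RNAi. osk rose 2.63-fold by mean normalized count. For osk the authors' deposited table gives a log2 fold change of 1.14 with an SE of 0.229 (adjusted p = 3.07e-05), or 2.21-fold with a 95% interval of 1.62 to 3.02.

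zpg (FBgn0024177, chromosome 3L, 6604366 to 6606032, minus strand), the germline gap junction gene, had 709 and 708 normalized counts in HP1a RNAi, against 525 and 532 in GFP RNAi. Within each group the libraries were nearly equal. The rise was 1.34-fold, with a log2 fold change of 0.41 and an SE of 0.107 in the authors' deposited table (adjusted p = 0.00379).

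**Figure D2:**
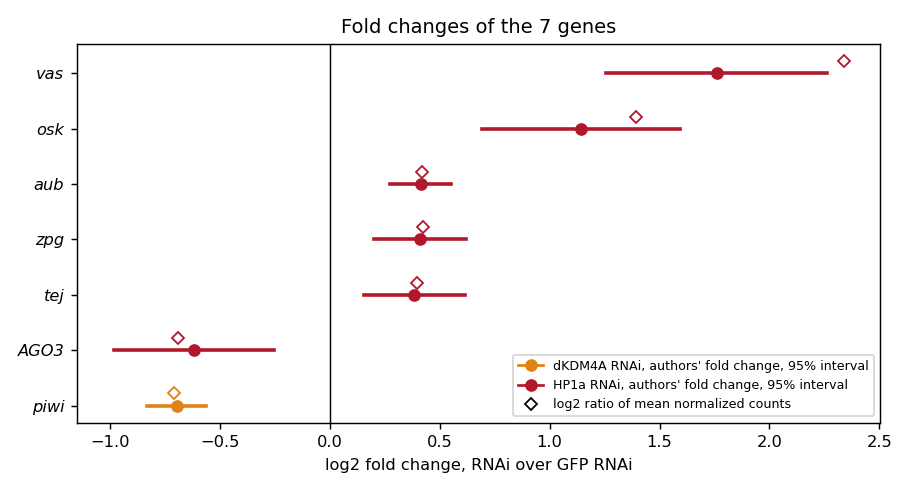
Log2 fold changes of the 7 genes, RNAi over GFP RNAi, as the authors deposited them (filled points, with 95% intervals as lines) and as log2 ratios of mean normalized counts (open diamonds). vas and osk lie farthest right, and only for vas does the diamond (2.34) fall outside its interval (1.26 to 2.26).

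Ordered by deposited log2 fold change, the genes of the HP1a table ran vas, osk, aub, zpg, tej and AGO3. The 95% intervals of vas (1.26 to 2.26) and osk (0.69 to 1.59) overlapped; the ratio of these genes within a library is given further on. The interval of osk lay above those of aub (0.27 to 0.55), zpg (0.20 to 0.62) and tej (0.15 to 0.61), which overlapped almost wholly with each other. AGO3 (-0.98 to -0.25) stood alone below 0. The median listed feature among those that were higher had a log2 fold change of 0.66, so that aub, zpg and tej lay below it and vas and osk above it. All 44 listed features of the HP1a table with a control mean below 50 normalized counts, vas and osk among them, were higher. At such low counts a feature needs a larger fold change to be listed, so the place of vas and osk above the median is only a description. The median among the lower features was -0.46, and AGO3 lay beyond it. In the dKDM4A table piwi (-0.83 to -0.56) lay beyond the median of the lower features, which was -0.48.

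**Figure D3:**
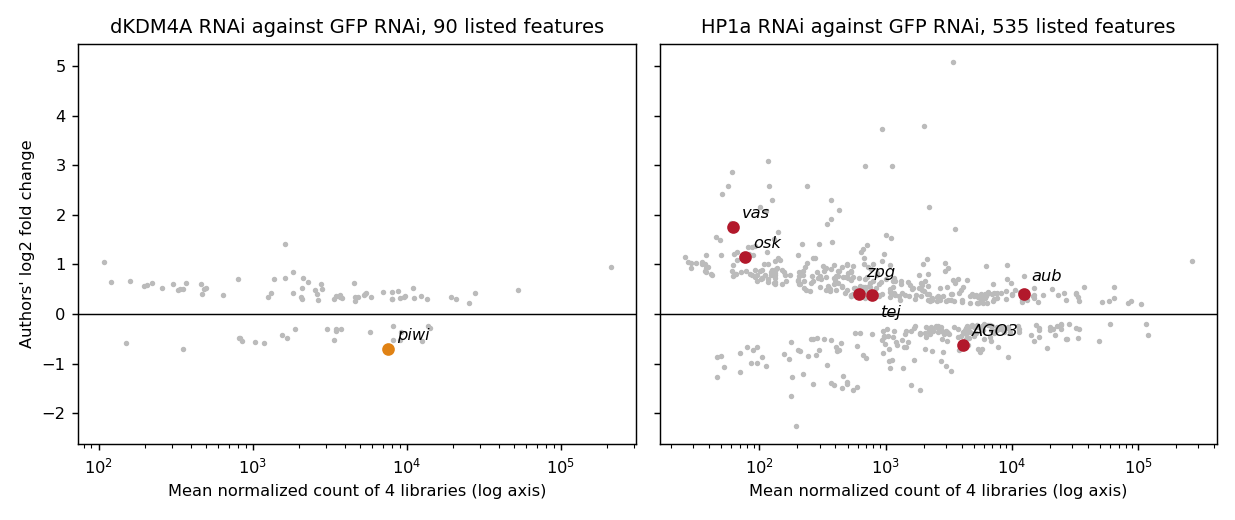
Authors' log2 fold change against the mean normalized count of 4 libraries (log axis) for the 90 and 535 listed features (grey) with the 7 genes in colour. Among the higher features of the HP1a table, vas and osk lie at the low end of the counts, and aub, with a mean of 12489, at the high end.

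All 7 genes had groups that did not overlap, as did 100% of the listed features of both tables, so this separation does not set them apart. Limma called all 6 members of the HP1a table, where it called 525 of 535 listed features, and piwi in the dKDM4A table, where it called 90 of 90. The listed rows were themselves chosen on these libraries, so limma is no independent evidence here. With 2 libraries a group, 0.333 is the smallest p an exact permutation test allows.

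**Figure D4:**
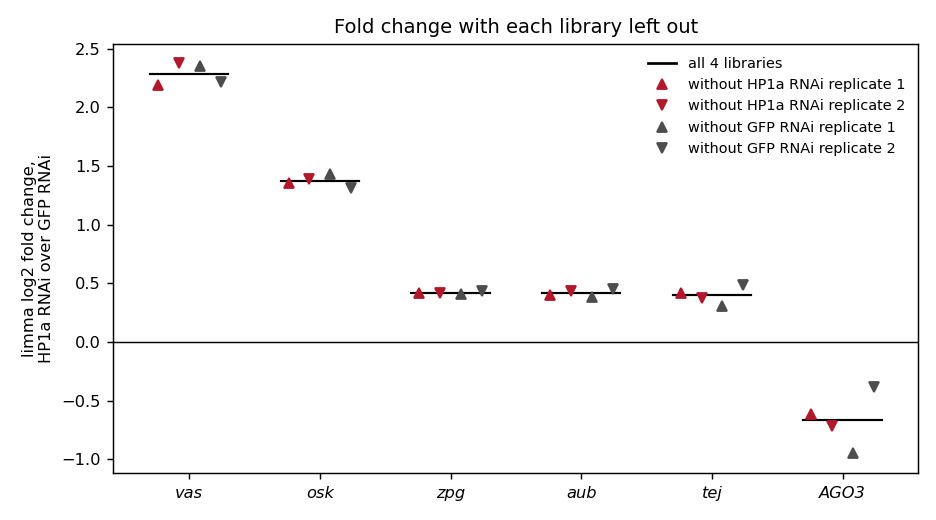
Limma log2 fold change, HP1a RNAi over GFP RNAi, of the 6 genes with all 4 libraries (line) and with each library left out (triangles). AGO3 moves most, between -0.95 and -0.38, and no gene changes sign.

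Levels per length in control cells spanned a wide range. The GFP libraries are the same in both tables, and their reads, recovered from the normalized counts, were equal for all 43 shared features, so piwi can be set beside the others on reads per kb of exon, although the tables were normalized separately. In the GFP libraries, replicate 1 first, piwi had 3764 and 2620 reads per kb and aub 3704 and 2601. Within a library, piwi was 1.02 and 1.01 times aub; the difference between the libraries on this scale includes their depth. AGO3 followed with 1377 and 1371 reads per kb. zpg, with 364 and 248, and tej, with 350 and 266, changed places between the libraries. osk had 16.4 and 10.1 and vas 10.1 and 6.13 reads per kb. piwi was thus 374 and 428 times as abundant per length as vas. vas and osk were near the low end of what was listed: 18 of the 535 listed features, vas among them, had a control mean below 21 normalized counts.

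Within the HP1a table, the order of vas and osk per kb of annotated exon turned round. That order depends on the exon lengths used, and both genes share exon bases with other annotated transcripts. Per kb of exon, vas averaged 45.4 ± 4.15 normalized counts in HP1a RNAi and 8.98 ± 0.622 in GFP RNAi, while osk averaged 38.6 ± 0.654 in HP1a RNAi and 14.7 ± 0.878 in GFP RNAi (SD, n = 2 each). The ratio of vas to osk reads per kb was 1.24 and 1.11 in HP1a RNAi, against 0.614 and 0.606 in GFP RNAi. tej and zpg kept a ratio close to 1, with 0.998 ± 0.020 in HP1a RNAi and 1.02 ± 0.0802 in GFP RNAi (SD, n = 2 each). Even after their rise, vas and osk remained the lowest of the 6 genes per length; aub was at 4739 ± 60.9 and AGO3 at 990 ± 52.0 normalized counts per kb in HP1a RNAi.

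**Figure D5:**
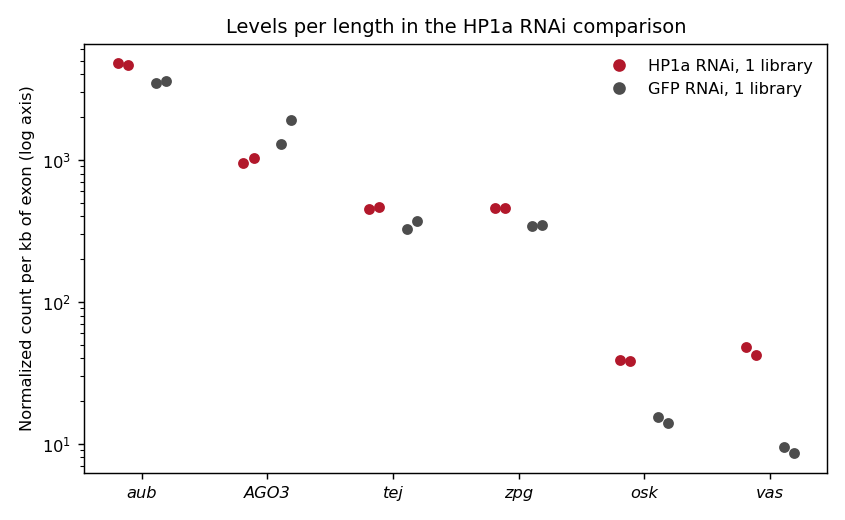
Normalized counts per kb of exon (log axis) of the 6 genes of the HP1a table, with HP1a RNAi libraries left of GFP RNAi libraries. aub is highest, then AGO3, then tej and zpg side by side, with osk and vas lowest.

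Several members share sequence with other annotated genes, and whether reads were counted by strand is not stated in the labels or headers. vas shares 563 of its 2285 exon bases with solo on the same strand, and vig lies within its introns on the opposite strand. The identifier listed for vas (FBgn0003970) is not that of the annotation used here (FBgn0283442), though symbol and position are the same. Which exons were counted for that row, and whether more of solo was among them, is not known. Its levels per kb may therefore not describe vas alone. osk shares 2251 of 2869 exon bases with the annotated transcript lncRNA:osk and 162 with an antisense RNA. piwi overlaps SCAR by 191 exon bases and aub overlaps TTLL4A by 79, both on the opposite strand. zpg lies inside Rexo5, opposite in strand, with 0 exon bases in common. None of these partners was listed in either table. Whether each was counted as a feature of its own is not known, so this does not show that they were unchanged. Reads in the shared bases cannot be assigned with certainty, which bears most on osk and vas.

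The features whose pattern over the 4 libraries was nearest to each member differed in kind. Nearness is the distance between log2(normalized count + 1) values centred on the GFP mean, within 1 table. It therefore reflects like fold changes and not like levels. For vas the 2 nearest of the 535 listed features were repeats, the retrotransposons GYPSY8_I (distance 0.096) and R1_DM (0.108), followed by the gene CG18446 (0.277). Repeats made up 46 of the 535 listed features. Their share among features with fold changes like that of vas was not computed, so no particular likeness of vas to repeats follows. Mean normalized counts in GFP RNAi were 142 for GYPSY8_I and 761 for R1_DM, against 20.5 for vas. For osk the nearest were CG13559 (0.081), the non-LTR element FW2_DM (0.120) and Ir40a (0.223). aub and zpg were near each other (0.036), beside Chd3 (0.013) and stj (0.041) for aub and DCTN1-p150 (0.041) and lwr (0.047) for zpg. tej was nearest to Oscillin (0.035), aay (0.056) and the repeat BLASTOPIA_I (0.058). AGO3 was nearest to Vps11 (0.118), mav (0.189) and p120ctn (0.198). For piwi, among 90 features, Or43b (0.065), Cyp4s3 (0.137) and CG12206 (0.189) were nearest.

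The wider gene lists held few other listed members. Of 34 piRNA pathway genes, 4 were listed in the HP1a table, 3 higher and 1 lower, and all 4 are among the genes above, which were chosen as listed. Outside the 7 genes the list had 0 of 29 listed in the HP1a table, where 6.46% of all features tested were listed. Every listed gene of this list is a member, so this 0 is no evidence about the pathway. The dKDM4A table listed 1 of the 34, piwi. Of 35 germline and germ plasm genes, 5 were listed in the HP1a table, 4 higher and 1 lower, and 0 in the dKDM4A table. Outside the 7 genes these were 2 of 32, or 6.25%, beside 6.46% of all features tested. How many genes of either list were tested is not known, so the shares have unlike bases. The median log2 fold change of the 4 listed piRNA genes was 0.40 and of the 5 listed germline genes 0.41, against 0.40 for all 535 listed features. The lists were drawn up with earlier results of these data known.

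Beyond the 7 genes, the germline list contributed stwl and stau. stwl, which is needed to maintain germline stem cells, had 2458 and 2482 normalized counts in HP1a RNAi, against 2112 and 1980 in GFP RNAi, a 1.21-fold rise (adjusted p = 0.0329 in the authors' deposited table). stau, an RNA-binding protein that localises osk RNA in the oocyte, had 5361 and 5150 in HP1a RNAi, against 6216 and 6277 in GFP RNAi. It was 1.19-fold lower (adjusted p = 0.0141 in the authors' deposited table), opposite in sign to osk.

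Markers of the somatic gonad and of haemocytes, which the line resembles, were set beside these changes. Of 6 somatic gonad genes 0 were listed in either table. Of 16 haemocyte markers, 5 (Pxn, drpr, NimB1, PPO2 and lz) were listed in the HP1a table, all higher, which is 31.2% of the list against 4.18% of all features listed as higher. The list was drawn up with earlier results of these data known, so its shares are only a description. How many of the 16 were tested is not known. None of the 5 was at 0 in a library, but lz had only 17 and 9 reads in GFP RNAi. Their summed normalized counts were 425984 and 356120 in HP1a RNAi, against 200953 and 155086 in GFP RNAi, nearly all of it from Pxn. The dKDM4A table listed 2 of the 16, NimC1 and Pxn, both higher, or 12.5% of the list against 0.876% of all features, where piwi was lower. Their summed normalized counts were 301216 and 273431 in the libraries labelled dKDM4A RNAi, against 161530 and 122497 in GFP RNAi. Their part in the results for the 7 genes was not tested.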

How the data were processed

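RNA was selected with oligo-dT and libraries were made with TruSeq kits, per the labels' protocols. TopHat, Bowtie and DESeq2 stand in the submitters' processing notes with no version or role. Which build was used was not given in the sources used here, but positions equalled those of BDGP6 (Ensembl release 115) for 81 of 81 and 458 of 461 matched genes of the dKDM4A and HP1a tables, and vas was matched by symbol and position. The signal columns hold normalized counts, per the file headers. That they are counts divided by a size factor per library, separately in each table, was inferred from the values. The values were whole multiples of 1 read (100% within 0.1 reads), and the size factors so found lay between 0.717 and 1.26. The log2 fold changes and their errors, the score and the p-values are the authors', per the file headers. The 95% intervals are 1.96 errors either side. A single row per table had no values and was left out.

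The numbers of tested features follow from Benjamini-Hochberg ranks in the deposited p-values. Group values are means ± SD. Within each table, log2(normalized count + 1) was fitted with limma 3.58.1 in R 4.3.3 for features with a mean of at least 1, p-values were adjusted over the listed rows by Benjamini-Hochberg, and the fit was tested on simulated data. The pseudocount makes folds of low genes too small. Over the listed rows together, replicates differed by more than sampling noise (chi-square per degree of freedom from 12.7 to 61.0), so each library counted once. The expected split came from the summed reads of those rows and not from the size factors. Genes with very many reads, such as Pxn, therefore weigh on it, and it does not give the spread of single features. Levels per kb use the union of annotated exons. Whether the shared replicate numbers mark pairs is not stated. Tried as alternatives were pseudocounts of 0.1 and 5, no filter, a mean of at least 50, a replicate block, each library left out, and stricter deposited thresholds. Named were the 7 genes, both targets, every listed gene of the 4 lists and the 3 nearest features of each member. The members and lists were chosen with earlier results of these data known. Python 3.11.15, numpy 2.4.6, pandas 2.3.3 and matplotlib 3.10.9 were used.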

Additional observations from a re-analysis of the deposited data

How the results depend on the processing

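All 42 values of the 7 genes under other pseudocounts, filters, the replicate block or the deposited fold change kept their direction and their side of the threshold. The replicate block left limma calling 6 of 6 members and 513 listed features of the HP1a table (525 without it) and 1 of 1 and 90 of the dKDM4A table; same-numbered libraries deviated together only weakly (correlations of 0.24 and 0.28 across listed features), and with the block AGO3 had an adjusted p of 0.00377. With 1 library left out, log2 fold changes ran from -0.95 to -0.38 for AGO3 and from 0.31 to 0.49 for tej, each lost in 3 of 4 cases; those of vas, osk, aub, zpg and piwi passed in all 4 (highest adjusted p 0.0495, for aub). The lone library of a group is then assumed to vary like the others. Limma calls among the listed features of the HP1a table ran from 334 (without HP1a RNAi replicate 2) to 383. At an absolute deposited log2 fold change of at least 1, the listed members numbered 2 (vas and osk) in the HP1a table and 0 in the dKDM4A table; at an adjusted p below 0.01 there were 4 and 1. The cause of these shifts was not tested. Leaving a library out also lowers the number of libraries, and the part of that was not tested either. The planned count test on recovered reads was not run, because too few low values were at hand, and no other scaling can be computed from the listed rows alone. Depth limits vas and osk most.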
